A study of Homo sapiens with 36 samples.

Results

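The transcriptional response to androgen was followed in control cells of LNCaP, an established androgen-dependent prostate cancer line from a lymph node metastasis. The members are the 6 libraries of the LNCaP line named NT3, 3 with DMSO and 3 with R1881, of 36 libraries in the series, and every gene of the count table was considered. NT3 was read as the non-targeting control from the title of the series, which is about TRIM33, since the labels do not expand the name. All 6 cultures had spent 3 days in medium with 5% charcoal-stripped serum, which is depleted of steroids, and then received DMSO, the solvent, or 5 nM R1881, a synthetic androgen that is metabolised slowly, for 6 h. The labels number the libraries 1 to 3 in each group without saying whether they were separate cultures. The p-values measure the spread between libraries of a group, estimated over all 24 LNCaP libraries of the series, and this spread may be technical. Besides NT3, the 24 come from lines labelled sgT33-5, sgT33-5_MC_C2 and sgT33-5_MC_F2, whose names were read as a guide against TRIM33. The comparison asks which genes move within hours of androgen reaching hormone-deprived cells. A second set of 6 libraries, NT3 cells of 42D with the same 2 treatments, was used where the response of LNCaP was set against that of another line. 42D came from LNCaP and is resistant to enzalutamide, an antiandrogen drug.

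Androgens are steroid hormones that change transcription through androgen response elements, inverted repeats of a hexamer. These elements lie mostly at enhancers that pioneer and lineage factors such as FOXA1, HOXB13, GATA2 and GRHL2 hold accessible. In the luminal cells of the prostate the best known outputs are secreted kallikrein proteases and genes of secretory and lipid metabolism.

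Promoter sequences of KLK2 and KLK3 are printed first, because the classic proximal androgen response element lies in this stretch of KLK3 and its paralog KLK2 holds the same letters. The sequences are from RefSeq (GRCh38.p14, plus strand) and cover the 250 bases before the annotated start of transcription. KLK2 is shown from chr19:50873189-50873438 and KLK3 from chr19:50854665-50854914. Capitals mark the match to GNACANNNNGTNCT, a relaxed form of the androgen response element.
KLK2: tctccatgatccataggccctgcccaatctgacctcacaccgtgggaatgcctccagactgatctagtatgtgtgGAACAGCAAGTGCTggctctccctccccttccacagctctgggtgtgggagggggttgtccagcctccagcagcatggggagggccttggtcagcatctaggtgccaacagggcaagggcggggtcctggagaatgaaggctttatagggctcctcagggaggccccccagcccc
KLK3: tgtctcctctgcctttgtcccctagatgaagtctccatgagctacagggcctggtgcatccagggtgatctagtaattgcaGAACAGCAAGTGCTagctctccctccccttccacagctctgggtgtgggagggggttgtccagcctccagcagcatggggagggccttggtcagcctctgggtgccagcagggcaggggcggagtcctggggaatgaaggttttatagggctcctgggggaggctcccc
The match began 175 bases before the start of KLK2 and 169 bases before that of KLK3. With the windows aligned on the match, 185 of 244 bases were identical (75.8%). The relaxed letters were chosen with the KLK3 element known, so its match there, like the identical one in KLK2, is no finding.

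Other matches to the relaxed form stood upstream of genes that fell with R1881, shown here for GRB10, an adaptor of insulin and IGF receptors, and TLE3, a corepressor. The GRB10 stretch is chr7:50782974-50783023 and the TLE3 stretch chr15:70094805-70094854, both on the minus strand.
GRB10: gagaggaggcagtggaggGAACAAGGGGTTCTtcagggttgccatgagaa
TLE3: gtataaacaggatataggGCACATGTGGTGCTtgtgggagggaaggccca
Over RefSeq windows from 250 bases before to 50 after a start, 11030 tested genes had 15920 windows. On either strand, the relaxed letters occurred in 6 of the 296 windows of genes that rose at least 2-fold (2.03%), in 1 of the 112 windows of genes that fell at least 2-fold (0.893%), in 0.765% and 0.607% of the windows of all genes that rose or fell, in 0.521% of the windows of all tested genes and in 0.701% of all 35116 windows in the table. The full element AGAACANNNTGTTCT occurred in 1 window in all and in 0 windows of tested genes. The hexamer AGAACA, which the full element contains, occurred in 12.8% and 12.5% of the windows of genes that rose or fell at least 2-fold and in 8.98% and 12.2% of those of all genes that rose or fell, against 9.77% for tested genes and 14.8% for all windows. The 6 windows include that of KLK2, whose matched letters are those of KLK3. Several windows belong to the same gene, as for LINC03007 among the 6, and a match describes letters only.

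The 6 libraries held 13900744 to 17248278 counts, of which 5.18% to 6.66% fell on the mitochondrial chromosome, with overlapping ranges in the 2 groups. Levels are given in CPM, in which each count is divided by the effective size of its library after TMM scaling and multiplied by 1e6. CPM are not corrected for gene length, so an order of genes by CPM or by gain in CPM is one of counts and not of transcripts. Changes are log2 fold changes of R1881 over DMSO with their standard error (SE) from edgeR's quasi-likelihood fit, and a gene was said to rise or fall where its p-value adjusted over all tested genes was below 0.05. Of 16 luminal prostate markers, 15 were tested, of which 8 rose (53.3%) and 2, HOXB13 and FOLH1, fell (13.3%). Over all tested genes 8% rose and 5.15% fell. The 16 summed to 8203 to 8712 CPM with DMSO and 12274 to 13339 CPM with R1881. The list holds established androgen targets that rose, KLK3, KLK2, TMPRSS2 and SLC45A3, so the higher sum is not a rise of the list as a whole. As these are bulk libraries, more cells of a type and more RNA per cell cannot be told apart. In contrast, 13 leukocyte markers summed to 0.254 to 0.664 CPM in every library, and 7 of the 13 had no count at all. Of 17 mesenchymal markers, 9 were tested, of which SNAI2 and TWIST1 rose (22.2%, against 8% of all tested genes). By edgeR and by DESeq2 0 fell, and the median was -0.04. The 17 summed to 273.8 to 289.0 CPM with DMSO and 302.9 to 328.4 CPM with R1881, and most of this was FN1, which was not called, at 219 ± 9.16 and 239.9 ± 12.1 CPM (SD, n = 3). Basal and neuroendocrine markers had overlapping sums in the 2 groups.

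After 6 h of R1881, 1242 of 15519 tested genes had risen (8% of those tested) and 800 had fallen (5.15%). Most changes were small, with a median log2 fold change of 0.47 among the genes that rose and -0.42 among those that fell. Changes under 1.5-fold made up 732 of the rises and 530 of the falls. Rises of at least 2-fold numbered 270 (1.74% of tested genes) and falls of that size 112 (0.722%). At 4-fold, 111 genes had risen and 11 had fallen. The 3 libraries of each group did not overlap for 1233 of the 1242 genes that rose and 783 of the 800 that fell. Among all 15519 tested genes, the R1881 libraries all lay above the DMSO libraries for 2216 and all below for 1976. Since the called genes were chosen on the same libraries, their separation is a description.

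Together, the genes that rose took 8.80% to 8.95% of the counts with DMSO and 12.5% to 13.2% with R1881. For the genes that fell, the share went from 6.31% to 6.70% with DMSO to 4.78% to 4.98% with R1881. The 10 largest gains in CPM made up 16.9% of the summed gain. They included those of KLK3, TMPRSS2, ABHD2, FKBP5, C1orf116, EHF, ENDOD1 and SLC45A3. KLK3 gained 1350.5 CPM. The 10 largest losses were those of GRB10, ST3GAL1, HOXB13, FOLH1, ATP2B1, KIF5B, TP53INP1, GASK1B, CBLN2 and CCNI, from -464 CPM for GRB10 to -172 CPM for CCNI. The call of CBLN2 (-0.77, SE 0.225) was lost without any 1 library other than DMSO replicate 3, with adjusted p of 0.0523 to 0.126 in edgeR.

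Size and level went together. Among genes under 1 CPM with DMSO, 109 of 1894 rose, 103 of them at least 2-fold, and 20 fell. The bins use the DMSO level, and the filter keeps a gene that is low with DMSO where other libraries hold more. Rises are therefore favoured in this bin, and falls have little room. Among genes at 100 to 500 CPM, 248 of 2199 rose, but only 15 of them at least 2-fold. The median log2 fold change of the genes that rose was 2.71 in the lowest bin and 0.32 at 100 to 500 CPM. The median SE of all tested genes was 0.416 and 0.0567 in the same bins, so a small change could pass the test only at high counts. The share of genes that rose was highest at 100 to 500 CPM (11.3%), and the share that fell was also highest there (7.37%).

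**Figure D1:**
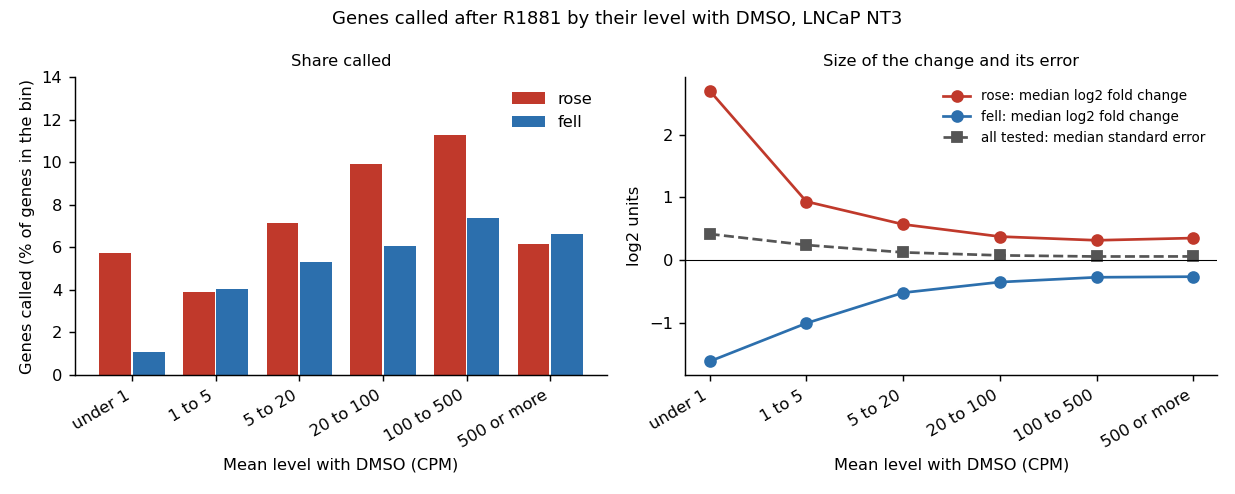
Genes called after R1881, in 6 bins of their mean level with DMSO (CPM), itself part of the comparison, which favours rises in the lowest bin. Left, bars give the share of each bin that rose or fell (%). Right, points give the median log2 fold change of the genes called in each direction and the median standard error of all tested genes; the median rise goes from 2.71 under 1 CPM to 0.32 at 100 to 500 CPM.

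**Figure D2:**
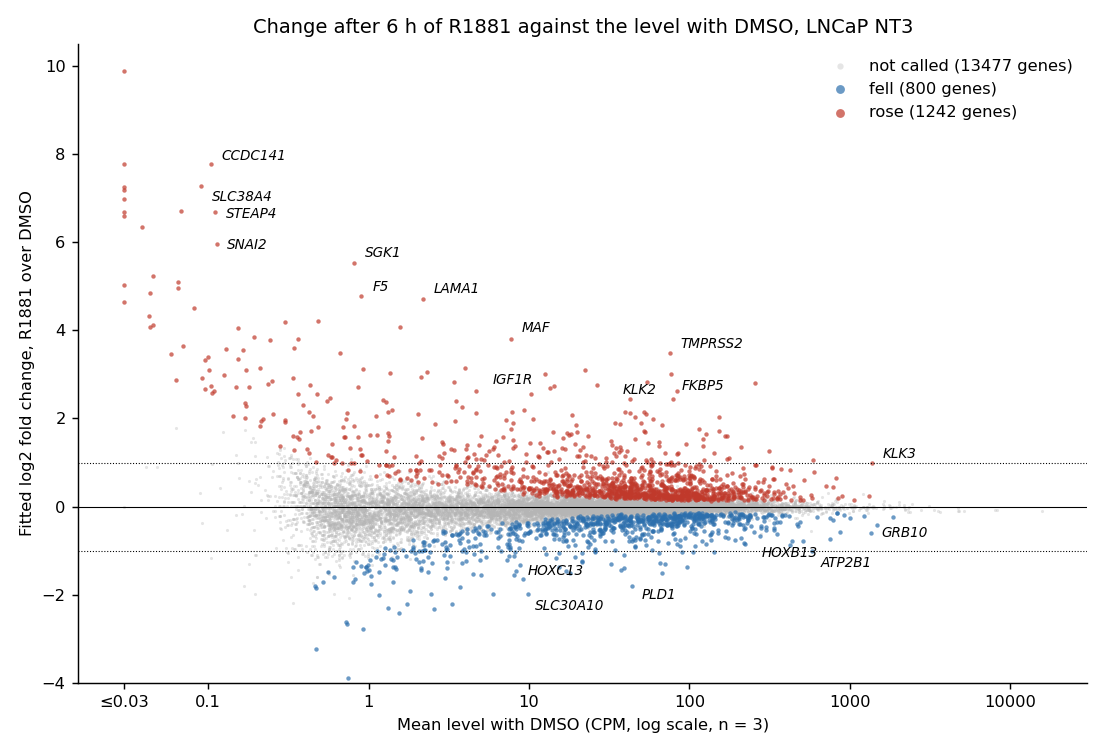
Each point is 1 of 15519 tested genes, placed by its mean level with DMSO (CPM, log scale, 3 libraries, levels of 0.03 or less drawn at the left edge) and its fitted log2 fold change with R1881. Red genes rose and blue genes fell, grey genes were not called, dotted lines mark 2-fold, and the fitted change of genes with no or very few counts with DMSO depends on the prior count.

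FOXA1, the pioneer factor that opens chromatin in luminal prostate cells, was not called and overlapped between the groups, at 574 ± 53.1 CPM (SD, n = 3) with DMSO and 592 ± 50.1 CPM (n = 3) with R1881. Means elsewhere carry the same SD over 3 libraries. Transcript levels do not show where the protein was bound.

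Other lineage factors moved in opposite directions. Of 29 listed receptor and lineage factors, 21 were tested, and 7 rose (33.3%) and 5 fell (23.8%), against 8% and 5.15% of all tested genes. Their median was 0.06 against -0.01 over all genes. Falls numbered 3 without DMSO replicate 3 and 3 without R1881 replicate 1. HOXB13 (chromosome 17, 48724763 to 48728750), the homeobox factor of the prostate lineage, went from 757, 785 and 729 CPM to 492, 442 and 431 CPM (-0.73, SE 0.0706, edgeR adjusted p = 9.85e-09). All R1881 libraries were far lower than all DMSO libraries. GATA2, a zinc-finger factor that acts at prostate enhancers, fell by nearly the same amount, from 209.9 ± 7.16 to 127 ± 7.78 CPM (-0.72, SE 0.0778).

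GRHL2, an epithelial factor that keeps adhesion genes active, rose from 108, 115 and 123 CPM to 382, 401 and 381 CPM (1.75, SE 0.0828). Its lowest R1881 library lay far above its highest DMSO library.

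Rises also included MAF, a basic leucine zipper factor, from 7.71 ± 1.27 to 107 ± 16.3 CPM (3.79, SE 0.207), and RUNX1, a runt factor, from 0.668 ± 0.316 to 7.53 ± 1.52 CPM (3.48, SE 0.319). The ETS factors EHF and SPDEF, both of luminal epithelium, rose by 0.64 (SE 0.0471) and 1.06 (SE 0.138). ELF3, another epithelial ETS factor, fell by 0.86 (SE 0.137) on the log2 scale. RFX3, a factor for genes of cilia, fell from 67.3 ± 3.16 to 23.7 ± 1.30 CPM (-1.51, SE 0.0765), and ZIC2, a developmental zinc-finger factor, fell from 70.9 ± 15.5 to 28.5 ± 5.03 CPM (-1.31, SE 0.184). MYC had 179 ± 24.6 CPM with DMSO and 153 ± 16.1 CPM with R1881 and was not called (edgeR adjusted p = 0.21).

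**Figure D3:**
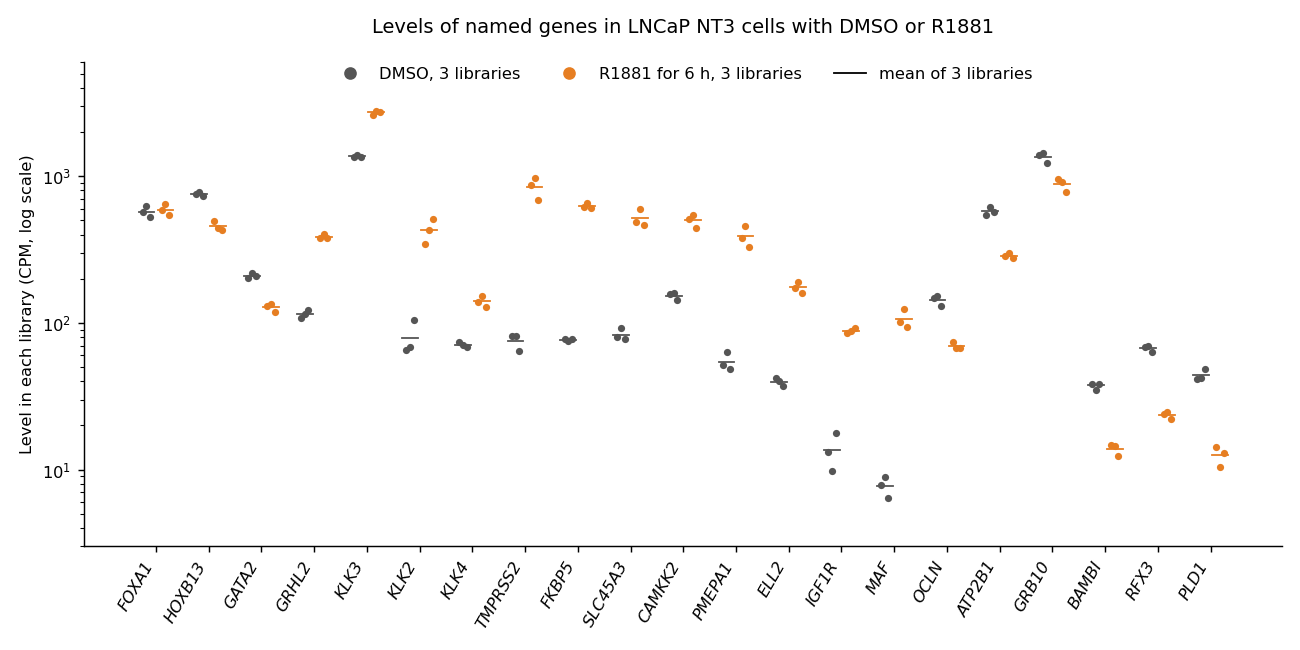
Level of 21 named genes in each of the 6 libraries (CPM, log scale), with DMSO in grey and R1881 in orange and a line at the mean of 3 libraries. GRHL2 reaches 381 to 401 CPM with R1881 from 108 to 123 CPM, FOXA1 overlaps between the groups, and HOXB13, GATA2 and the genes at the right stand lower with R1881.

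Of 33 tested receptor cofactors, 6 rose (18.2%) and 2 fell (6.06%), with a median of 0.06. Over all tested genes 8% rose and 5.15% fell, and these shares are the background of each list count below. PIAS1, a SUMO ligase, rose by 0.70 (SE 0.0667), TRIM24, a chromatin reader of the same family as TRIM33, by 0.59 (SE 0.0653), and BRD2, a bromodomain protein, by 0.50 (SE 0.0462). TRIM33 (chromosome 1, 114392790 to 114511203), a chromatin-bound ubiquitin ligase, stood at 95.7, 89.0 and 95.1 CPM with DMSO and at 128, 121 and 128 CPM with R1881. Its groups did not overlap (0.43, SE 0.0751, edgeR adjusted p = 0.000124). The corepressor TLE3 fell by 0.52 (SE 0.0830) on the log2 scale and the coactivator NCOA3 by 0.32 (SE 0.0710). The coactivators NCOA1 (-0.06) and NCOA2 (-0.16), the acetyltransferase EP300 (0.25) and the Mediator subunit MED1 (0.06) were not called. Of 17 receptor chaperones 1 rose (5.88%), the immunophilin FKBP5, and 0 fell.

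**Figure D4:**
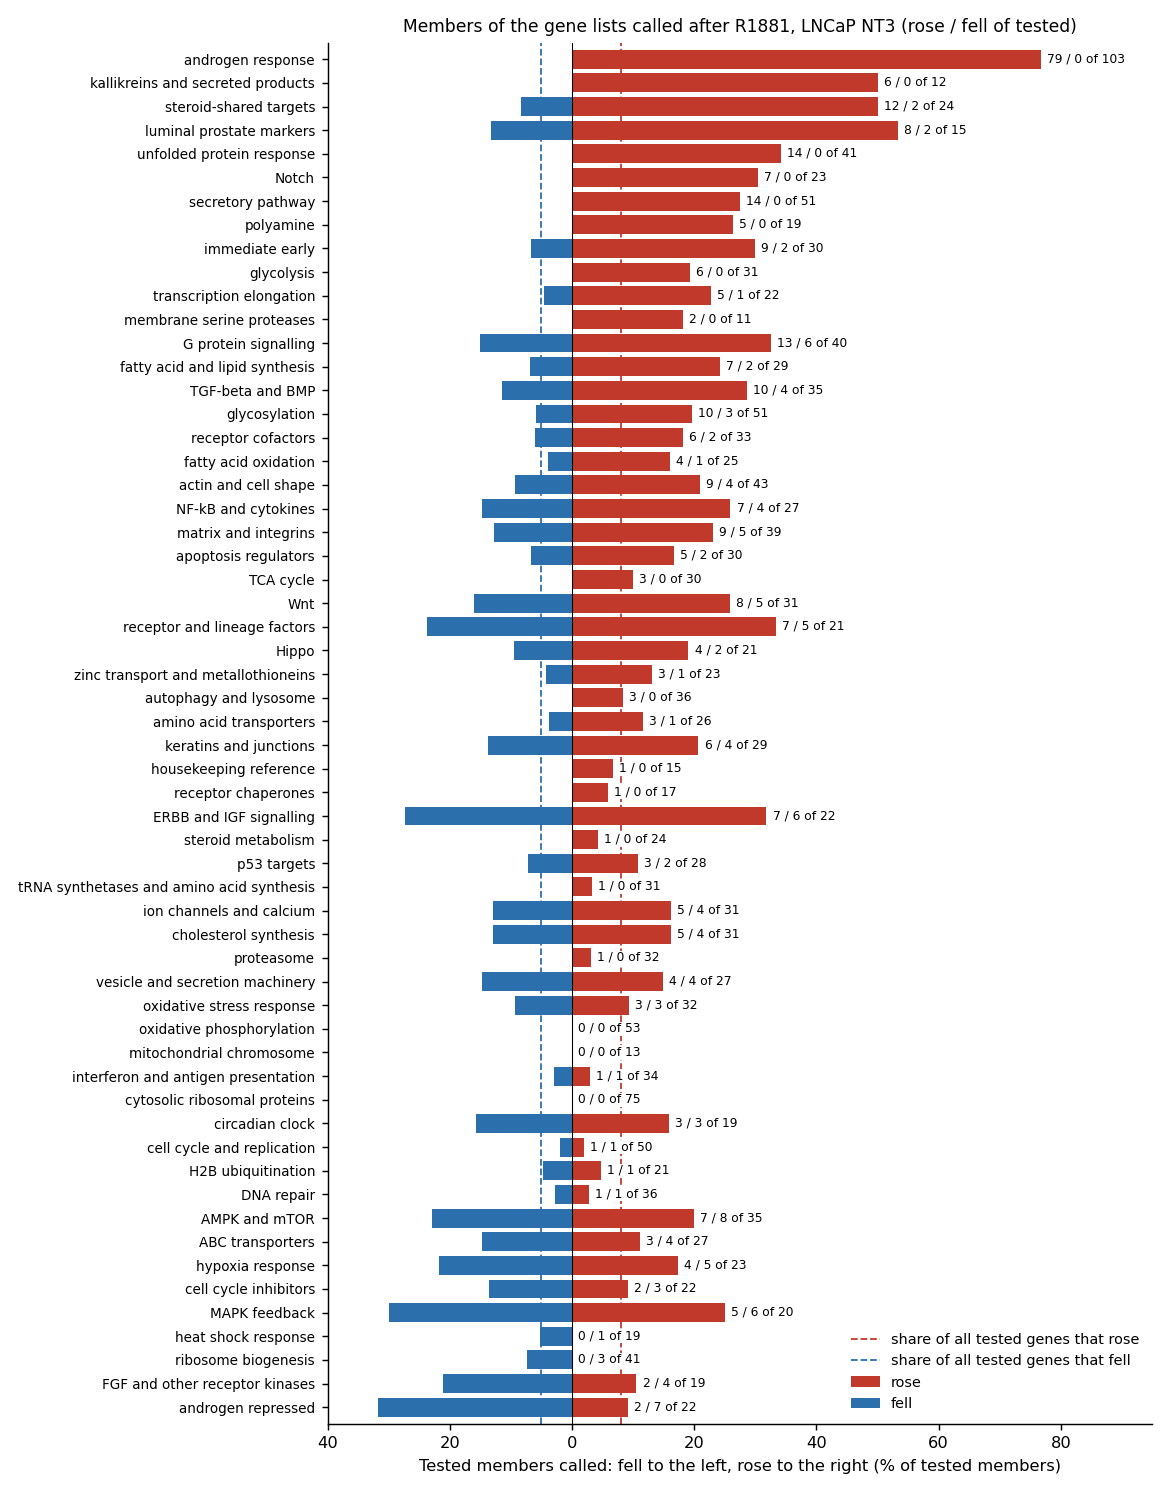
For each gene list with 10 or more tested members, bars give the share of tested members (%) that rose (right) or fell (left), with the counts beside each bar. Dashed lines give the same shares over all tested genes, 8% and 5.15%; lists share members, and they were chosen with earlier results known.

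Among classical androgen response genes, rises were the rule. Of 103 tested members, 79 rose and 0 fell, with a median of 0.62 against -0.01 over all genes, and 72 to 80 rose when any 1 library was left out. The members are established targets and were listed for this reason. TMPRSS2 (chromosome 21, 41464300 to 41531116), a membrane serine protease, went from 80.9, 81.9 and 64.5 CPM to 869, 969 and 693 CPM (3.48, SE 0.143, edgeR adjusted p = 7.46e-13). Its lowest R1881 library lay several-fold above its highest DMSO library. FKBP5 (chromosome 6, 35573585 to 35728583), a chaperone of steroid receptors, stood at 77.9, 75.2 and 78.2 CPM with DMSO and at 612, 658 and 607 CPM with R1881 (3.02, SE 0.0898), with little spread in either group.

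The transporter SLC45A3 rose from 83.3 ± 8.43 to 516 ± 67.7 CPM (2.63, SE 0.133), and PMEPA1, a membrane protein that restrains TGF-beta signalling, from 54.5 ± 7.57 to 388 ± 62.7 CPM (2.83, SE 0.135). The kinase CAMKK2, which activates AMPK, rose from 154 ± 9.70 to 501 ± 54.7 CPM (1.70, SE 0.0684). NDRG1, a stress-response gene, rose from 42.6 ± 7.17 to 185 ± 39.5 CPM (2.12, SE 0.195), and the efflux transporter ABCC4 from 67.4 ± 4.62 to 245 ± 16.3 CPM (1.86, SE 0.0995). In all 5 genes the libraries of the 2 groups were apart. Members of the list that were not called included the desaturase SCD (-0.15) and the sterol regulator INSIG1 (-0.10).

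The kallikreins KLK2, KLK3, KLK4 and KLK15, secreted proteases of seminal fluid, rose. KLK3 (chromosome 19, 50854915 to 50860764), which encodes prostate-specific antigen, stood at 1348, 1400.0 and 1357 CPM without androgen and at 2631, 2804 and 2721 CPM with R1881 (0.99, SE 0.198, edgeR adjusted p = 0.00174). Its 3 R1881 libraries were all higher than the DMSO libraries and close to one another. KLK2 (chromosome 19, 50861568 to 50880567), which activates the KLK3 product, went from 65.1, 68.4 and 105 CPM to 346, 428 and 515 CPM (2.43, SE 0.347, edgeR adjusted p = 6.55e-05). In both groups of KLK2, replicate 3 was the highest library. KLK4 rose from 71.2 ± 2.89 to 140.1 ± 11.3 CPM (0.98, SE 0.0878) and KLK15 from 3.66 ± 0.952 to 6.58 ± 0.972 CPM (0.85, SE 0.175). Reads of close paralogs such as KLK2 and KLK3 may have been shared or split by the counting.

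Of 24 kallikreins and other secreted products, 12 were tested, and 6 rose and 0 fell, with a median of 0.60, and 1 fell without DMSO replicate 3. Besides the 4 kallikreins, those that rose were the proteoglycan SPOCK1, from 1.75, 1.44 and 0.774 CPM to 5.85, 6.79 and 4.98 CPM, and the plasma protein ORM1, which had 0, 0.0719 and 0.0645 CPM with DMSO and 1.65, 3.10 and 0.930 CPM with R1881. Products of the prostate that were not called included the acid phosphatase ACP3 (-0.08) and the trefoil factor TFF3 (-0.11).

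A small group went from near silence to clear expression. Of all tested genes, 6 had under 0.5 CPM in each DMSO library and at least 5 CPM in each R1881 library. CCDC141 (chromosome 2, 178829757 to 179050137), a coiled-coil protein, had 2, 0 and 3 counts with DMSO and 408, 416 and 335 counts with R1881. It overlaps TTN, so reads may be shared between these genes. The amino acid transporter SLC38A4 had 0, 2 and 2 counts and then 189, 244 and 227. The metalloreductase STEAP4 had 2, 3 and 0 counts and then 171, 241 and 130.

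The glucose transporter SLC2A3 had 1, 2 and 0 counts with DMSO and 111, 123 and 113 counts with R1881. On summed counts scaled to the library totals this was a ratio of 117, with an exact 95% interval of 39.7 to 570.5 that covers counting error only. SNAI2, a zinc-finger factor best known from mesenchymal cells, had 1, 3 and 1 counts and then 103, 100 and 126. The non-coding RNA PCSEAT had 5, 5 and 4 counts and then 83, 94 and 81. For each of these genes the lowest R1881 library held over 15 times the counts of the highest DMSO library. The peptide hormone precursor NPPC, chosen after its values were seen, had 0 counts in every DMSO library and 101, 155 and 69 with R1881, which is at least 109.7-fold higher against a floor of 3 counts over the DMSO group.

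Other genes with large rises began low but measurable. SGK1, a kinase induced by several steroids, went from 0.994, 0.791 and 0.645 CPM to 34.0, 41.1 and 39.1 CPM (5.53, SE 0.314). F5, coagulation factor V, rose from 0.902 ± 0.450 to 24.3 ± 2.42 CPM (4.77, SE 0.401) and LAMA1, a laminin chain of basement membranes, from 2.17 ± 0.805 to 58.0 ± 9.12 CPM (4.72, SE 0.301). The small GTPase RHOU rose from 22.4 ± 3.73 to 193 ± 27.6 CPM (3.10, SE 0.101), TIPARP, a mono-ADP-ribosyltransferase, from 12.6 ± 1.89 to 101 ± 16.4 CPM (3.01, SE 0.133), and the cold-sensing channel TRPM8 from 2.32 ± 0.297 to 19.3 ± 0.556 CPM (3.06, SE 0.153).

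Targets that other steroid receptors are known to share behaved unequally. Of 24 tested, 12 rose and 2 fell, with a median of 0.56. Falls numbered 0 without DMSO replicate 1, DMSO replicate 2 or R1881 replicate 1, and 1 without any other single library. ZBTB16, a zinc-finger repressor, rose from 42.8 ± 3.26 to 233 ± 7.35 CPM (2.44, SE 0.107), and PER1, a clock gene, from 14.2 ± 0.526 to 46.2 ± 4.39 CPM (1.70, SE 0.113). TSC22D3, a leucine zipper gene widely used as a glucocorticoid readout, stood at 78.8, 76.9 and 89.2 CPM with DMSO and lower, at 49.9, 40.8 and 56.8 CPM, with R1881 (-0.73, SE 0.228, edgeR adjusted p = 0.0419). The call of TSC22D3 was lost without any 1 library other than R1881 replicate 3, with edgeR adjusted p of 0.0746 to 0.178. The phosphatase DUSP1 (0.18) and the amine oxidase MAOA (0.11) were not called. NR3C1, the glucocorticoid receptor gene, was at a mean of 1.54 CPM with DMSO.

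Of 22 tested genes of transcription elongation, 5 rose (22.7%, against 8% of all tested genes) and 1 fell, and 3 rose without DMSO replicate 1. ELL2 and EAF2, whose products bind each other in elongation complexes, were among those that rose. ELL2 went from 39.7 ± 2.33 to 175 ± 14.7 CPM (2.14, SE 0.0852) and EAF2 from 3.81 ± 1.03 to 18.1 ± 2.82 CPM (2.26, SE 0.153). CDK9, the kinase of P-TEFb, was not called (0.04), and neither was its cyclin CCNT1 (0.16).

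Immediate early genes gave 9 rises (30%) and 2 falls (6.67%) among 30 tested, with a median of 0.17, and 4 fell without DMSO replicate 3. The orphan receptor NR4A1 rose from 18.2 ± 2.83 to 57.0 ± 6.55 CPM (1.64, SE 0.116), KLF4, an epithelial zinc-finger factor, by 1.32 (SE 0.193) and the AP-1 subunit FOSL2 by 1.24 (SE 0.109). NR4A2, a paralog of NR4A1, fell from 1.97 ± 0.174 to 0.848 ± 0.164 CPM, and KLF10 fell by 0.42 (SE 0.0912) on the log2 scale. FOS had a mean of 0.918 CPM with DMSO and 0.608 CPM with R1881, EGR1 had 0.80 and 0.657 CPM, and neither was called.

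The machinery that carries proteins out of the cell shifted by small amounts. Of 51 tested genes of the secretory pathway, 14 rose and 0 fell, with a median of 0.12, and 9 rose without R1881 replicate 2 or without R1881 replicate 3. The coat proteins SEC24B and SEC24D, which load cargo into vesicles at the endoplasmic reticulum, rose from 67.1 ± 1.92 to 112 ± 3.69 CPM (0.74, SE 0.0694) and from 39.2 ± 5.30 to 64.0 ± 8.45 CPM (0.71, SE 0.158).

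Of 41 tested genes of the unfolded protein response, 14 rose and 0 fell, with a median of 0.19, and 9 rose without R1881 replicate 3. ERN1, the sensor kinase IRE1, rose from 54.9 ± 11.2 to 150.0 ± 16.5 CPM (1.45, SE 0.181), and DNAJB9, a co-chaperone of the endoplasmic reticulum, from 21.8 ± 3.58 to 55.4 ± 13.4 CPM (1.34, SE 0.281). Genes of the PERK arm, ATF4 (-0.14), DDIT3 (-0.34), TRIB3 (-0.25) and CHAC1 (-0.44), were not called, and neither was XBP1 (-0.13), the factor whose transcript IRE1 splices.

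Glycosylation genes gave 10 rises (19.6%) and 3 falls (5.88%) of 51 tested, with a median of 0.08. CSGALNACT1, which starts chondroitin sulfate chains, rose from 1.36 ± 0.608 to 11.2 ± 1.37 CPM (3.03, SE 0.285), and ST6GALNAC1, a sialyltransferase, from 7.96 ± 1.41 to 29.7 ± 5.14 CPM (1.91, SE 0.131). UAP1, which makes UDP-GlcNAc, rose from 329 ± 15.0 to 614 ± 20.2 CPM (0.90, SE 0.0859). ST3GAL1, another sialyltransferase, fell from 1484 ± 62.6 to 1106 ± 41.1 CPM (-0.42, SE 0.0537).

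Polyamines are made in quantity by the prostate and passed into seminal fluid. Of 19 tested genes of this pathway 5 rose and 0 fell, although the median was -0.02. ODC1, the rate-limiting enzyme, went from 536, 499 and 512 CPM to 786, 803 and 764 CPM (0.60, SE 0.0465), and the groups were well apart. AMD1 and SMS, which act after it, rose by 0.44 (SE 0.0629) and 0.41 (SE 0.0569). SAT1 and SMOX, which turn polyamines back, also rose, from 29.1 ± 7.29 to 54.7 ± 11.7 CPM (0.91, SE 0.160) and from 7.40 ± 0.193 to 10.2 ± 1.06 CPM (0.46, SE 0.115). SAT1 was not called in a fit of the 6 libraries alone (adjusted p = 0.0676, edgeR). The synthase SRM (-0.04), the antizyme OAZ1 (-0.04) and the antizyme inhibitor AZIN1 (0.02) were not called.

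Lipid synthesis changed at a few enzymes. Of 29 tested genes of fatty acid and lipid synthesis 7 rose (24.1%) and 2 fell (6.90%), with a median of -0.05. PLPP1, a lipid phosphatase, rose from 166 ± 3.41 to 504 ± 43.2 CPM (1.60, SE 0.0786), the acyltransferase MBOAT2 from 121 ± 10.2 to 348 ± 29.3 CPM (1.52, SE 0.0992) and the elongase ELOVL7 from 64.3 ± 1.35 to 178 ± 16.5 CPM (1.47, SE 0.0861). Of the acyl-CoA synthetases, ACSL3 rose by 1.35 (SE 0.0852) and its paralog ACSL1 fell by 0.44 (SE 0.070) on the log2 scale. The phospholipid acyltransferase LPCAT3 fell by 0.38 (SE 0.0911). FASN, fatty acid synthase, was not called (0.18).

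In the cholesterol list 5 of 31 tested genes rose and 4 fell, with a median of -0.01. SCAP, the sterol sensor, rose from 99.7 ± 5.17 to 165 ± 8.47 CPM (0.73, SE 0.0648). The exporters ABCA1 and ABCG1 fell, from 8.78 ± 1.40 to 3.47 ± 0.967 CPM (-1.33, SE 0.184) and from 24.1 ± 2.73 to 13.3 ± 2.14 CPM (-0.86, SE 0.162). HMGCS1 (0.14), SQLE (0.04) and the regulator SREBF2 (0.00) were not called.

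For glucose, 6 of 31 tested glycolysis genes rose and 0 fell, with a median of 0.00, and 1 fell without DMSO replicate 3. Besides SLC2A3, the transporter SLC2A12 rose from 20 ± 1.32 to 64.4 ± 7.55 CPM (1.69, SE 0.135). Genes of AMPK and mTOR signalling split into 7 rises and 8 falls of 35 tested. MTOR, the kinase, rose by 0.65 (SE 0.120), and DEPTOR, its inhibitor, fell from 25.9 ± 4.71 to 12.9 ± 1.63 CPM (edgeR adjusted p = 3.6e-07).

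Receptor signalling genes changed in both directions. Of 22 tested genes of ERBB and IGF signalling, 7 rose and 6 fell. IGF1R, the receptor of insulin-like growth factors, went from 13.2, 9.85 and 17.7 CPM to 85.6, 87.9 and 92.6 CPM (2.70, SE 0.153). Its DMSO libraries differed among themselves more, in proportion, than its R1881 libraries. The adaptors IRS2 and IRS1 rose from 4.67 ± 0.0808 to 29.0 ± 4.21 CPM (2.63, SE 0.158) and from 4.87 ± 1.23 to 12.9 ± 1.78 CPM (1.41, SE 0.170). GRB10 (chromosome 7, 50590063 to 50793462) went from 1393, 1436 and 1225 CPM to 959, 916 and 785 CPM (-0.61, SE 0.0660), and every R1881 library was lower than every DMSO library.

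On the ERBB side, the feedback inhibitors ERRFI1 and LRIG1 rose, by 2.75 (SE 0.155) and 1.66 (SE 0.0827), and the receptor EGFR rose by 0.89 (SE 0.142). LRIG3, a relative of LRIG1, fell by 0.97 (SE 0.106) on the log2 scale, the ligand HBEGF by 0.75 (SE 0.117) and the receptor ERBB3 by 0.24 (SE 0.0413).

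Of 35 tested genes of TGF-beta and BMP signalling 10 rose and 4 fell, with a median of 0.05. BMPR1B, a BMP receptor, rose from 3.41 ± 0.959 to 24.6 ± 4.35 CPM (2.83, SE 0.18). The ubiquitin ligase SMURF1 rose by 0.51 (SE 0.0702) and the receptor BMPR1A by 0.65 (SE 0.0646). BAMBI, a decoy receptor, went from 38.6, 35.1 and 38.6 CPM to 14.6, 14.5 and 12.4 CPM (-1.44, SE 0.122), and SMAD7, an inhibitor within the cell, from 11.8 ± 0.439 to 7.55 ± 0.266 CPM (-0.65, SE 0.109).

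Notch genes gave 7 rises and 0 falls of 23 tested, with 4 rises without DMSO replicate 1. Falls numbered 1 without DMSO replicate 3, 2 without R1881 replicate 2 and 1 with DESeq2. MAML2, a Notch coactivator, rose from 1.32 ± 0.123 to 4.24 ± 0.550 CPM (1.67, SE 0.240), and the ligand JAG1 from 334 ± 41.3 to 519 ± 67.0 CPM (0.64, SE 0.145). The target HES1 had 1.64, 1.72 and 1.68 CPM with DMSO and 2.1, 1.78 and 1.93 CPM with R1881, and was not called (edgeR adjusted p = 0.743). Of 31 tested Wnt genes 8 rose and 5 fell. Rises numbered 4 without DMSO replicate 3, and falls numbered 3 without DMSO replicate 1 and 3 without R1881 replicate 2. The receptor FZD5 rose from 34.4 ± 1.53 to 128 ± 6.06 CPM (1.90, SE 0.0839) and the ligand WNT7B from 34.9 ± 3.11 to 88.1 ± 14.2 CPM (1.34, SE 0.121). The receptors FZD4 and FZD3 fell, by 0.77 (SE 0.0908) and 0.69 (SE 0.0878) on the log2 scale, and so did the ubiquitin ligase RNF43, by 1.03 (SE 0.144). AXIN2, a common Wnt readout, was not called (-0.09).

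Large falls included transporters and enzymes of lipid signalling. SLC30A10 (chromosome 1, 219685427 to 219959018), a manganese exporter, went from 9.94, 10.6 and 9.10 CPM to 2.99, 2.24 and 2.26 CPM (-1.98, SE 0.203, edgeR adjusted p = 3.04e-08). The phospholipase PLD1 went from 41.4, 42.3 and 48.4 CPM to 14.2, 10.4 and 13.0 CPM (-1.81, SE 0.115), and the bile salt pump ABCB11 from 9.17 ± 1.22 to 2.94 ± 0.698 CPM (-1.65, SE 0.282). In each of these the highest R1881 library was under the lowest DMSO library.

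OCLN, a tight junction protein, fell from 143 ± 11.9 to 69.9 ± 4.04 CPM (-1.04, SE 0.0668). ATP2B1, a calcium pump of the plasma membrane, stood at 540.1, 620.1 and 572 CPM with DMSO and at 285, 299 and 279 CPM with R1881 (-1.01, SE 0.0765). TP53INP1, a stress-induced gene, fell from 512 ± 41.2 to 296 ± 13.9 CPM (-0.79, SE 0.0587).

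Of 25 listed androgen repressed genes, 22 were tested, and 7 fell and 2 rose, with a median of -0.25, and 1 rose without DMSO replicate 1, DMSO replicate 3 or R1881 replicate 2. OPRK1, the kappa opioid receptor, fell from 10.1, 7.47 and 6.78 CPM to 2.99, 2.31 and 3.06 CPM (-1.55, SE 0.196) and the chemokine receptor ACKR3 from 275 ± 42.7 to 173 ± 28.9 CPM (-0.67, SE 0.147). The receptor kinase MET fell by 0.64 (SE 0.0985) on the log2 scale. The glucuronidating enzymes UGT2B15 and UGT2B17, close paralogs whose reads may be shared, overlapped between the groups (-0.50, SE 0.210, and -0.33, SE 0.273). In both, replicate 2 was the highest library of each group. TMEFF2, a membrane protein, rose against the name of its list, from 33.5, 31.3 and 34.1 CPM to 88.4, 90.0 and 82.4 CPM (1.40, SE 0.198).

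Several large classes held almost no called gene at 6 h. Of 53 tested genes of oxidative phosphorylation and 75 of cytosolic ribosomal proteins, 0 rose and 0 fell by edgeR, with medians of 0.00 and -0.02. At an unadjusted p under 0.05 there were 2 and 1 such genes, DESeq2 also called 0 in both lists, and 1 gene of oxidative phosphorylation fell without DMSO replicate 3 or without R1881 replicate 1. Of 50 tested genes of the cell cycle and replication, 1 rose and 1 fell. CDK6, a G1 kinase, rose from 3.42 ± 1.28 to 8.26 ± 1.61 CPM (1.28, SE 0.241), and CCNG2, a cyclin of resting cells, fell from 221 ± 30.4 to 124 ± 15.5 CPM (-0.83, SE 0.114). Of 34 tested genes of interferon and antigen presentation, B2M, the light chain of MHC class I, rose by 0.60 (SE 0.0521), IRF1, an interferon regulatory factor, fell by 1.03 (SE 0.185) on the log2 scale, and the others were not called.

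By gene type, 1139 of 12465 protein-coding genes rose (9.14%) and 725 fell (5.82%). Of 2288 long non-coding RNA genes, 74 rose (3.23%) and 64 fell (2.80%). Their median level with DMSO was 1.64 CPM, against 34.0 CPM for protein-coding genes, so these shares are not compared at equal levels. Among all tested genes at 1 to 5 CPM with DMSO, 3.89% rose and 4.05% fell.

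The response was then set against that of 42D NT3 cells, which share no library with it. A test of the difference called 638 of 16564 genes (3.85%), with 337 where the LNCaP value was higher and 301 where it was lower. Of the 1242 genes that rose in LNCaP, 226 differed, 104 with a higher value in LNCaP and 122 with a lower value. Of the 800 that fell, 121 differed, 42 falling further in LNCaP and 79 less far. The 270 genes that rose at least 2-fold in LNCaP had a median of 1.70 there and 1.78 in 42D. Since these genes were chosen on LNCaP libraries, the medians are a description.

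Several central genes were not called for a difference, which does not show that they responded alike. HOXB13 changed by -0.73 in LNCaP and -0.75 in 42D (difference 0.02, SE 0.0894). GATA2 changed by -0.72 and -0.75 (0.04, SE 0.109) and CAMKK2 by 1.70 and 1.77 (-0.05, SE 0.0897). For KLK3 the values were 0.99 and 1.54 (-0.54, SE 0.258), from 1368 CPM with DMSO in LNCaP and 123 CPM in 42D. With no filter on low counts the difference for KLK3 was called (-0.55, edgeR adjusted p = 7.87e-10).

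TMPRSS2 rose more in LNCaP, by 3.48 against 1.91 (difference 1.58, SE 0.167). KLF5, an epithelial Kruppel-like factor, went from 4.68 to 20.4 CPM in LNCaP and from 37.2 to 49.8 CPM in 42D, a difference of 1.71, SE 0.193. F5 (2.84, SE 0.498) and CSGALNACT1 (2.52, SE 0.323) also had larger log2 rises in LNCaP. Their mean levels with DMSO in 42D were 16.8 and 38.7 CPM, so this orders folds and not gains in CPM.

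A larger fall in 42D gave the high difference of WNT5A, a non-canonical Wnt ligand. WNT5A went from 548 to 111 CPM in 42D and from 50.4 to 40.4 CPM in LNCaP (difference 1.99, SE 0.109). FKBP5 rose less in LNCaP, by 3.02 against 3.87 (-0.84, SE 0.104), and so did SLC45A3, by 2.63 against 3.67 (-1.03, SE 0.205). ODC1 rose by 0.60 against 1.78 (-1.17, SE 0.0715) and NDRG1 by 2.12 against 4.24 (-2.11, SE 0.249). HES1 went from 6.18 to 24.3 CPM in 42D and was not called in LNCaP (difference -1.76, SE 0.337).

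**Figure D5:**
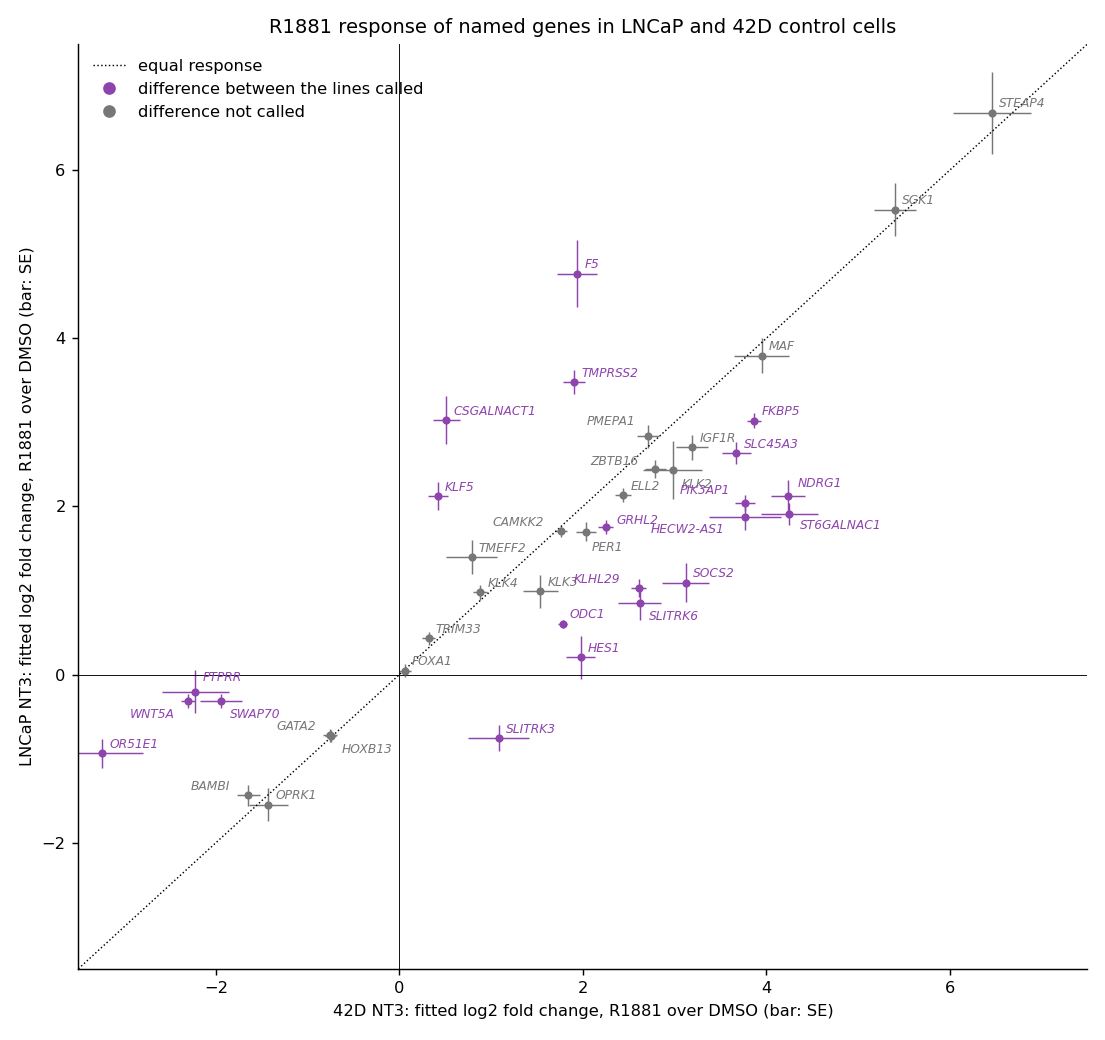
Fitted log2 fold change with R1881 in LNCaP NT3 (vertical) against 42D NT3 (horizontal) for named genes, with standard errors as bars and a dotted line of equal response. Purple genes differ between the lines by the test of the difference; F5, CSGALNACT1, KLF5 and TMPRSS2 lie above the line, and NDRG1, ODC1, FKBP5 and SLC45A3 below it.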

How the data were processed

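The deposited table holds counts per gene for 36 libraries of 12 groups, as whole numbers that the authors did not normalize. Per the labels, RNA with integrity numbers above 9 was made into stranded polyA libraries and read as 51 bp pairs, and per the submitters' processing notes cutadapt and HISAT2 2.1.0 were used with GRCh38 (hg38). The counting tool is not given in the sources used here. Of 61806 entries, 1 had no identifier and 0 counts.

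Counts were fitted with edgeR 4.0.16 (R 4.3.3; TMM scaling, filterByExpr, robust quasi-likelihood) over the 24 LNCaP libraries, which share 1 estimate of spread, and the R1881 effect of the NT3 line was tested with Benjamini-Hochberg adjustment at 0.05. The difference from 42D came from 1 fit of all 36 libraries, so it can depart slightly from the subtraction of the printed changes. The SE is the absolute change divided by the square root of F. Scripts were tested on simulated counts. Gene and list choices were made with earlier results of these data known.

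The named genes are a panel of 32, the 20 highest and 20 lowest changes among called genes of at least 5 CPM without overlap, up to 3 called members in each direction from each of 63 lists, the 10 largest gains and losses in CPM, genes under 0.5 CPM that reached 5 CPM, and the 8 largest differences from 42D in each direction. They number 265, and some of them are not reported here. A further 57 genes were chosen after their values were seen, among them all genes given as not called outside the panel and the rises of ACSL3, AMD1, BMPR1A, EGFR, KLK15, LRIG1, MTOR, SMS, SMURF1, SPDEF and UAP1. DESeq2 1.42.0, other scalings, filters, sample sets, a replicate block and leaving out each library were tried.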

Additional observations from a re-analysis of the deposited data

Results flagged for a closer look

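The R1881 response differed between LNCaP NT3 and 42D NT3 for 638 genes by the test of the difference itself, in edgeR with Benjamini-Hochberg adjustment. The values below are differences in log2 fold change, LNCaP minus 42D. Among the panel and the largest differences, higher values in LNCaP included those of F5 (2.84), CSGALNACT1 (2.52), OR51E1 (2.31), PTPRR (2.03), WNT5A (1.99), KLF5 (1.71), SWAP70 (1.64) and TMPRSS2 (1.58). OR51E1, an olfactory receptor gene expressed in prostate, changed by -0.94 in LNCaP and -3.24 in 42D, and its call was lost without 42D R1881 replicate 2 (edgeR adjusted p = 0.0514). PTPRR, a phosphatase that acts on MAP kinases, changed by -0.20 in LNCaP and -2.22 in 42D.

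Lower values in LNCaP were those of ST6GALNAC1 (-2.33), NDRG1 (-2.11), SOCS2 (-2.02), HECW2-AS1 (-1.89), SLITRK3 (-1.83), SLITRK6 (-1.77), HES1 (-1.76), PIK3AP1 (-1.71), KLHL29 (-1.57), ODC1 (-1.17), SLC45A3 (-1.03), FKBP5 (-0.84) and GRHL2 (-0.49). SOCS2, a feedback inhibitor of cytokine signalling, changed by 1.09 in LNCaP and 3.12 in 42D, and SLITRK6, a membrane protein, by 0.85 and 2.62. HECW2-AS1 was not called by DESeq2 (adjusted p = 0.0816) or without 42D DMSO replicate 1, 42D DMSO replicate 2 or LNCaP DMSO replicate 3 (edgeR adjusted p of 0.0929 to 0.168).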

How the results depend on the processing

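With 1 library left out at a time, 1075 to 1114 genes rose, 570 to 736 fell, 262 to 276 rose at least 2-fold, 99 to 113 fell at least 2-fold and 483 to 596 differed from 42D. DESeq2 called 1189 rises and 754 falls, and a fit of the 6 libraries alone 1162 and 688. Rises made up 57.6% to 66.2% of calls in all settings tried. Of 322 genes followed, 23 to 28 lost their call when 1 library was left out, and 0 changed sign while called. The replicate numbers were not taken to pair the libraries: same-numbered DMSO and R1881 libraries had correlations of 0.0931, 0.263 and 0.332 in their deviations, and each library correlated best with its own number, which is a hint from the data only. With the replicate block, 1703 genes rose, 1200 fell and 1033 differed from 42D, against 638 without it, and the cause was not tested. Of the 322 genes, 14 gained a call with the block, among them ATF4, DDIT3, CHAC1, MYC, UGT2B15, SCD and NCOA2 as falls and CCNT1 and HMGCS1 as rises, and the unfolded protein response list had 23 rises and 4 falls. Depth limits the genes under 1 CPM, whose median SE was 0.416.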

Other observations

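HOX genes, the homeobox factors of body position, gave 0 rises and 5 falls by edgeR among 18 tested, with a median log2 fold change of -0.47. This family was looked at after its values were seen, and no test was made of it. Besides HOXB13, the falls were those of 3 genes of the HOXC cluster and of HOXA10. HOXC13 went from 37.8, 33.5 and 26.4 CPM with DMSO to 15.8, 12.8 and 11.2 CPM with R1881. HOXC12 fell from 34.5 ± 1.96 to 17.4 ± 0.825 CPM (SD, n = 3) and HOXC9 from 12.8 ± 2.99 to 6.08 ± 0.785 CPM. HOXA10 fell by 0.40 (SE 0.107) on the log2 scale, a call that was lost without DMSO replicate 1 or R1881 replicate 2. HOXC6, in the same cluster as HOXC13, stood at 37.5, 41.8 and 38.1 CPM and 39.9, 41.8 and 40.3 CPM and was not called.

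Antisense RNAs were tested beside the gene they are named for in 409 pairs, of which 25 had a called antisense RNA (6.11%) and 15 had both members called. Of all tested lncRNAs 6.03% were called, and of all tested genes 13.2%. In 13 of these 15 pairs the members moved in the same direction. In 1 of the other pairs CTBP1-AS rose from 2.16, 2.16 and 2.07 CPM to 15.6, 19.0 and 14.5 CPM while CTBP1, a corepressor gene, fell from 232 ± 6.43 to 188 ± 9.29 CPM. The kit marks strand, but the strand setting of the counting is not given in the sources used here, so reads of overlapping pairs may not be separated.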
